A study of Mus musculus with 8 samples.

Results

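Foxp1, Foxp2, Foxp4, Bcl11a and Bcl11b encode transcription factors of striatal projection neurons, and were taken by gene symbol as 5 of the 15705 genes listed for the lateral ganglionic eminence (LGE) of mouse embryos. All 5 passed the filter on low values, which 15698 genes passed. Poly(A) RNA was sequenced from the LGE, the embryonic structure whose neurons populate the striatum, at E18.5. The 4 conditional knockout (cKO) embryos carried Dlx1-Cre and Isl1 flx/flx, and their 4 control littermates carried Isl1 flx/flx alone, so both groups share the floxed alleles. Recombination is limited to cells in which the Dlx1-driven Cre is or was active, and because Cre is in the cKO alone, its presence and the deletion cannot be told apart. The comparison asks which LGE transcripts depend on Isl1, a LIM-homeodomain factor of ventral forebrain neurons.

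FOXP proteins pair a forkhead DNA-binding domain with a zinc finger and a leucine zipper through which family members dimerise with each other, and they act largely as repressors. Foxp1 and Foxp2 are expressed in projection neurons of the developing striatum, Foxp2 is known for its link to human speech and for its expression in cortex, thalamus and cerebellum as well, and Foxp4 is a more broadly expressed member of the family. Bcl11a (Ctip1) and Bcl11b (Ctip2) encode C2H2 zinc finger proteins that bind COUP-TF nuclear receptors and associate with the NuRD and BAF chromatin complexes. Bcl11b is widely used as a marker of striatal projection neurons and is required for their differentiation.

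Of the 5 genes, Foxp4 alone passed the test (limma, Benjamini-Hochberg adjusted p under 0.05 over all genes tested). It rose 1.61-fold in the cKO between the group means. Foxp1, Foxp2, Bcl11a and Bcl11b did not pass, which does not show that they were unchanged. Over all genes tested, 6.66% passed in either direction, 2.87% rose and 3.78% fell. Foxp4 was also the only one of the 5 whose cKO and control values did not overlap, which was the case for 12.7% of all genes tested. The median log2 fold change of all genes tested was 0.01.

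The windows around the annotated start sites of Foxp4, which rose, and of Bcl11a, which lies at a like level and did not pass, are shown 5′ to 3′ on the gene's strand as RefSeq gives them for GRCm38.p6. Each window runs across the start site. Capitals mark TAAT or its reverse complement ATTA, the core letters recognised by many homeodomain proteins. The Foxp4 window is chr17:47924583-47924882 on the minus strand, and the Bcl11a window is chr11:24080445-24080744 on the plus strand. In the GENCODE annotation the Foxp4 gene starts within its window, at 47924645. The Bcl11a gene starts at 24078056 there, so its window lies inside the gene, and the windows are not placed alike against that annotation.
Foxp4: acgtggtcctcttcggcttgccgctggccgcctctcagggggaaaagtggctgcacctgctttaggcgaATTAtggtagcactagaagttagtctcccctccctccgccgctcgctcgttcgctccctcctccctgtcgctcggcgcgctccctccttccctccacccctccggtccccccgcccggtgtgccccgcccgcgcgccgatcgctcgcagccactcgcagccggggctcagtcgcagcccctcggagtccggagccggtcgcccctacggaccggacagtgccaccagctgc
Bcl11a: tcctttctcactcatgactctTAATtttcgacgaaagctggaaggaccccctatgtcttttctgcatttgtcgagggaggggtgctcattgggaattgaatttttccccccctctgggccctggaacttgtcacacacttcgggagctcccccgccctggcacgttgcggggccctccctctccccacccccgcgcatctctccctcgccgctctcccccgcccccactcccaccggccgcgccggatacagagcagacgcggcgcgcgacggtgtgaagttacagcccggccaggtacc
Each window holds 1 such run of letters, which starts 181 bases before the start site of Foxp4 and 229 bases before that of Bcl11a. The motif stands in 58.0% of all 32851 windows of this length, searched on both strands, so its presence is common. The Foxp4 window has a GC content of 70.3% and the Bcl11a window of 63.0%, against a median of 52.7% over all windows. These letters describe the loci, and the libraries hold no measurement of binding there.

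The values below are the authors' read values for each gene and library, scaled and adjusted by them and rounded to whole numbers, and are called adjusted values. They summed to between 23732455 and 24456923 per library. These sums reflect the scaling, so sequencing depth is unknown. One direction of variation within the groups is missing from the values, which makes SDs, SEs and p-values too small to a degree. Isl1 itself held 4930, 5377, 5618 and 5971 in the cKO libraries, against 3777, 3692, 4186 and 3517 in the controls. Its log2 fold change was 0.53 ± 0.06 (SE, limma adjusted p = 0.000338). The Isl1 transcript was thus higher, not lower, in the libraries labelled cKO. The value covers the whole gene, and no source used here names the floxed exons, so it does not check the labels. All directions below rest on the libraries as labelled. Markers of pallial neurons were low in every library, with a summed level of the 12 markers between 8.27 and 24.3 RPKM in the cKO and between 2.34 and 23.2 RPKM in the controls. Control replicate 3 and cKO replicate 4 had the lowest pallial levels, and results without these libraries are given where they bear.

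Foxp4 (chromosome 17, 47867133 to 47924645, minus strand, GRCm38; 8 annotated transcripts, 4 of them protein-coding) held adjusted values of 9360, 8928, 9775 and 9203 in the cKO libraries, against 5692, 5549, 6065 and 5796 in the controls. Every cKO library lay above every control library, and the lowest cKO value was well clear of the highest control value. The means were 9317 ± 354 in the cKO and 5776 ± 218 in the controls (SD, n = 4 each). The log2 fold change was 0.69 ± 0.04 (SE), with a 95% interval of 0.60 to 0.78, or 1.52-fold to 1.71-fold (limma adjusted p = 1.19e-06). An exact two-sided permutation test gave p = 0.0286, the lowest value possible with 4 libraries in each group. Without these 2 libraries the log2 fold change was 0.72 ± 0.05 (adjusted p = 9.30e-05). The authors' deposited table gives Foxp4 a log2 fold change of 0.69 with an adjusted p of 1.29e-21. In bulk tissue, more cells that express a gene and more RNA per cell cannot be told apart.

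Foxp4 stood high in the order of the whole comparison. It ranked 20 by p among the genes tested. Of the 451 genes that rose, 132, Foxp4 included, rose by at least its log2 fold change. Each of the others had a mean below 5776 in at least 1 group. Among the 806 genes whose means were at least 5776 in both groups, 32 rose, and Foxp4 was the only one to rise by a log2 fold change of 0.69 or more. This cut at the value of Foxp4 itself was chosen after its value was seen and describes the gene, with no test.

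**Figure D1:**
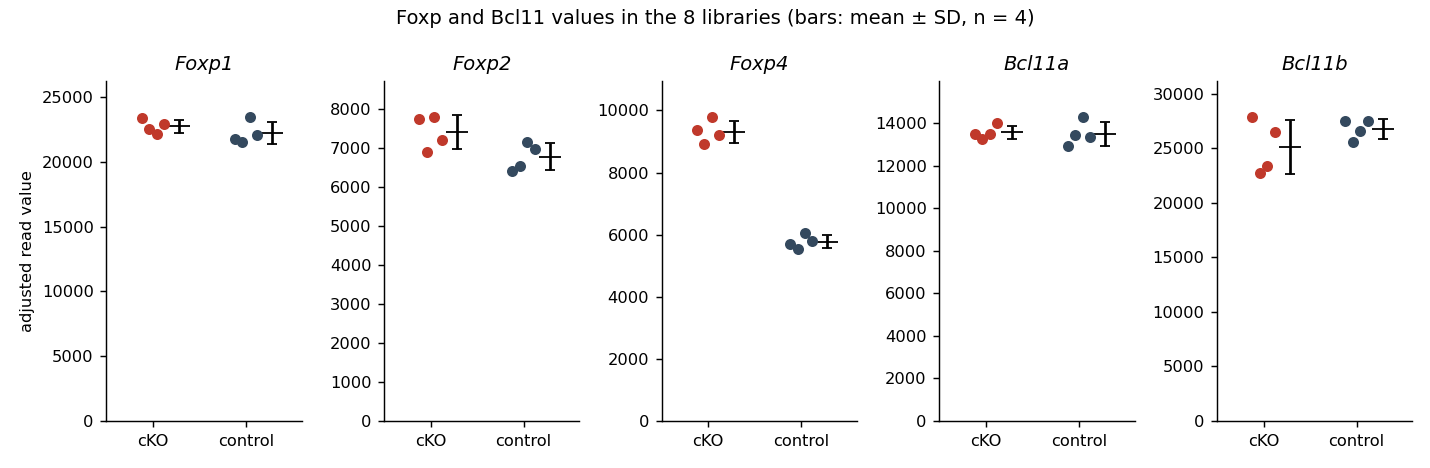
Adjusted values (axis from 0) of the 5 genes in each of the 4 cKO and 4 control libraries, with mean ± SD beside the points. The Foxp4 values of the cKO, 8928 to 9775, sit above all controls, 5549 to 6065, and the other 4 genes overlap between groups.

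Foxp1 (chromosome 6, 98925338 to 99522721, minus strand), a factor of both direct and indirect pathway projection neurons, held 23371, 22548, 22148 and 22943 in the cKO, against 21739, 21540, 23437 and 22108 in the controls. The groups overlapped, and the highest value of all 8 was a control. The means were 22752.5 ± 525 in the cKO and 22206 ± 854 in the controls (SD, n = 4 each). The log2 fold change was 0.04 ± 0.04 (SE, limma adjusted p = 0.684), and its 95% interval allows a fold of 0.968 to 1.09.

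Foxp2 (chromosome 6, 14901349 to 15441977, plus strand) held 7732, 6883, 7772 and 7201 in the cKO, against 6412, 6528, 7144 and 6973 in the controls. The groups overlapped, with the lowest cKO library below the 2 highest controls. The means were 7397 ± 430.3 in the cKO and 6764 ± 350.1 in the controls (SD, n = 4 each). The log2 fold change of 0.13 ± 0.05 (SE) had an unadjusted p of 0.0245 and an adjusted p of 0.181 in limma, so it did not pass. Its 95% interval, 1.01-fold to 1.18-fold, lies below that of Foxp4. In the cKO, Foxp2 and Foxp4 put the 4 libraries in the same order, with replicate 3 highest and replicate 2 lowest. Both genes were also highest in replicate 3 among the controls.

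Bcl11a (chromosome 11, 24078056 to 24174123, plus strand) held 13470, 13252, 13504 and 13993 in the cKO, against 12927, 13435, 14259 and 13328 in the controls. The cKO values lay wholly inside the control range. The means were 13555 ± 313 in the cKO and 13487 ± 559 in the controls (SD, n = 4 each), a log2 fold change of 0.01 ± 0.04 (SE, limma adjusted p = 0.946). The 95% interval runs from 0.95-fold to 1.06-fold. The sign of this small value is not fixed, since it was negative in RPKM (-4.87e-05), without control replicate 1 (-0.01) and without cKO replicate 4 (-0.01).

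Bcl11b (chromosome 12, 107910403 to 108003602, minus strand), the marker of striatal projection neurons, held 27832, 22724, 23419 and 26538 in the cKO, against 27461, 25600, 26604 and 27548 in the controls. The cKO libraries split, with replicates 2 and 3 below every control and replicate 1 above every control. The means were 25128 ± 2449 in the cKO and 26803 ± 908 in the controls (SD, n = 4 each). The coefficient of variation was 9.75% in the cKO and 3.39% in the controls, a difference in spread that was not tested. The log2 fold change was -0.10 ± 0.06 (SE, limma adjusted p = 0.454), with an interval of 0.851-fold to 1.03-fold. A loss of Bcl11b RNA beyond 0.851-fold therefore lies outside this interval, within the reservation on SEs given above.

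Per length, the 5 genes were abundant, and their order differed between the groups. In RPKM, Bcl11b averaged 131 ± 12.5 in the cKO and 140.2 ± 6.39 in the controls (SD, n = 4 each). Foxp1 averaged 119 ± 2.68 RPKM in the cKO and 117 ± 4.14 RPKM in the controls. Foxp4 averaged 95.4 ± 3.78 RPKM in the cKO and 59.5 ± 2.23 RPKM in the controls, and Bcl11a 79.6 ± 1.46 RPKM in the cKO and 79.6 ± 2.58 RPKM in the controls. Foxp2 was the lowest, with 43.1 ± 2.59 RPKM in the cKO and 39.6 ± 1.89 RPKM in the controls. On the mean RPKM of the 8 libraries, Bcl11b stood at percentile 97.7 of the listed genes, Foxp1 at 97.1, Bcl11a at 94.96, Foxp4 at 94.8 and Foxp2 at 88.5.

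In all 4 cKO libraries the order was Bcl11b, Foxp1, Foxp4, Bcl11a and Foxp2, and in all 4 controls Bcl11a stood above Foxp4. The lowest Foxp4 level in the cKO was 91.6 RPKM, above the highest Bcl11a level there of 81.5 RPKM. In the controls the highest Foxp4 level was 61.8 RPKM, below the lowest Bcl11a level of 77.6 RPKM. Bcl11b and Foxp1 were the one pair of neighbours whose ranges overlapped, in the cKO alone, where the lowest Bcl11b level was 118 RPKM and the highest Foxp1 level 123 RPKM. Foxp3, the family member known from regulatory T cells, was nearly at 0, at no more than 0.095 RPKM in any library.

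**Figure D2:**
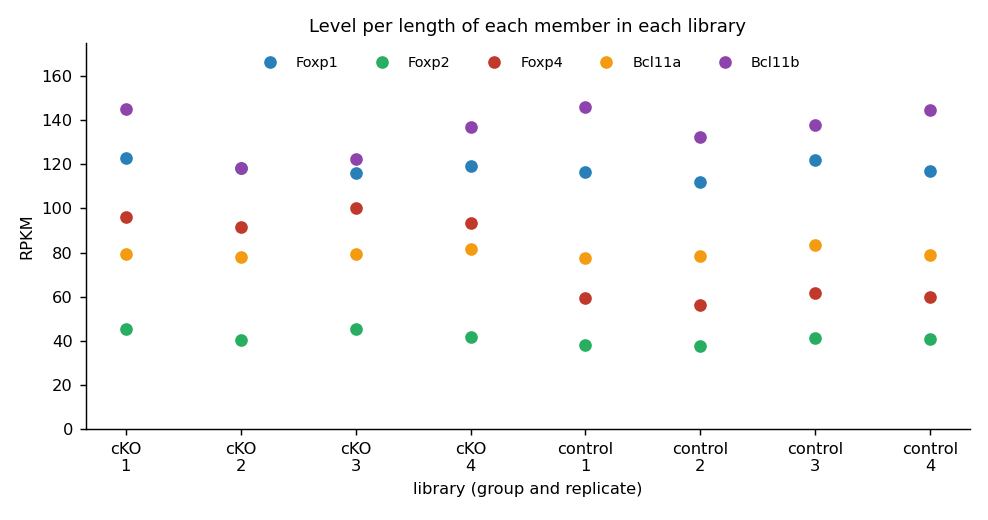
RPKM (axis from 0) of each gene in each library, cKO libraries on the left and controls on the right. Foxp4 lies above Bcl11a in the 4 cKO libraries and below it in the 4 controls, while the other genes keep their places. In cKO replicate 2 the points of Bcl11b and Foxp1 lie on each other.

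Ratios within a library do not depend on how the library was scaled, and they set the change of Foxp4 against each other gene. They still carry the authors' adjustment, so the reservation on SDs and p-values given above holds for them too. The log2 ratio of Foxp4 to Bcl11a, in RPKM, was 0.26 ± 0.06 in the cKO and -0.42 ± 0.04 in the controls (SD, n = 4 each), a difference of 0.68. The log2 ratio of Foxp4 to Foxp1 was -0.32 ± 0.07 in the cKO and -0.97 ± 0.01 in the controls, a difference of 0.65. That of Foxp4 to Foxp2 differed by 0.56 and that of Foxp4 to Bcl11b by 0.79. For each of these 4 ratios the groups did not overlap, and the exact two-sided permutation p was 0.0286, the smallest possible, or 0.0571 adjusted over the 10 pairs compared. The threshold of 0.05 was therefore not reached for any pair after adjustment. It could have been reached only with more of the 10 pairs at the smallest possible p.

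Of the 6 ratios without Foxp4, that of Foxp2 to Bcl11b was also separated, at -1.60 ± 0.13 in the cKO and -1.82 ± 0.08 in the controls (exact permutation p = 0.0286, adjusted p = 0.0571). It was higher in the cKO by 0.23 on the log2 scale. The ratio of Bcl11b to Bcl11a was 0.71 ± 0.13 in the cKO and 0.82 ± 0.09 in the controls, a difference of -0.11 (exact permutation p = 0.2, adjusted p = 0.222). It was -0.16 without cKO replicate 1 and -0.07 without cKO replicate 2. The remaining 4 ratios differed by 0.03 to 0.13, with exact permutation p between 0.0857 and 0.343 before adjustment. Among these, the difference for Foxp2 to Foxp1 was 0.09, and 0.06 without cKO replicate 3, and that for Foxp1 to Bcl11a was 0.03, and 0.01 without cKO replicate 1 or control replicate 2.

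Among the Foxp transcripts, Foxp4 made up 37.0% ± 0.863 of the summed RPKM of Foxp1, Foxp2 and Foxp4 in the cKO and 27.5% ± 0.205 in the controls (SD, n = 4 each). Foxp1 made up 46.2% ± 1.30 in the cKO and 54.1% ± 0.32 in the controls. Foxp2 made up 16.7% ± 0.598 in the cKO and 18.4% ± 0.408 in the controls. The sum itself was 258 ± 6.48 RPKM in the cKO and 216 ± 7.96 RPKM in the controls. In RPKM the sum was thus 41.6 higher in the cKO, of which Foxp4 held 35.9. Bcl11b made up 62.1% ± 2.04 of the summed Bcl11 level in the cKO and 63.8% ± 1.44 in the controls.

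**Figure D3:**
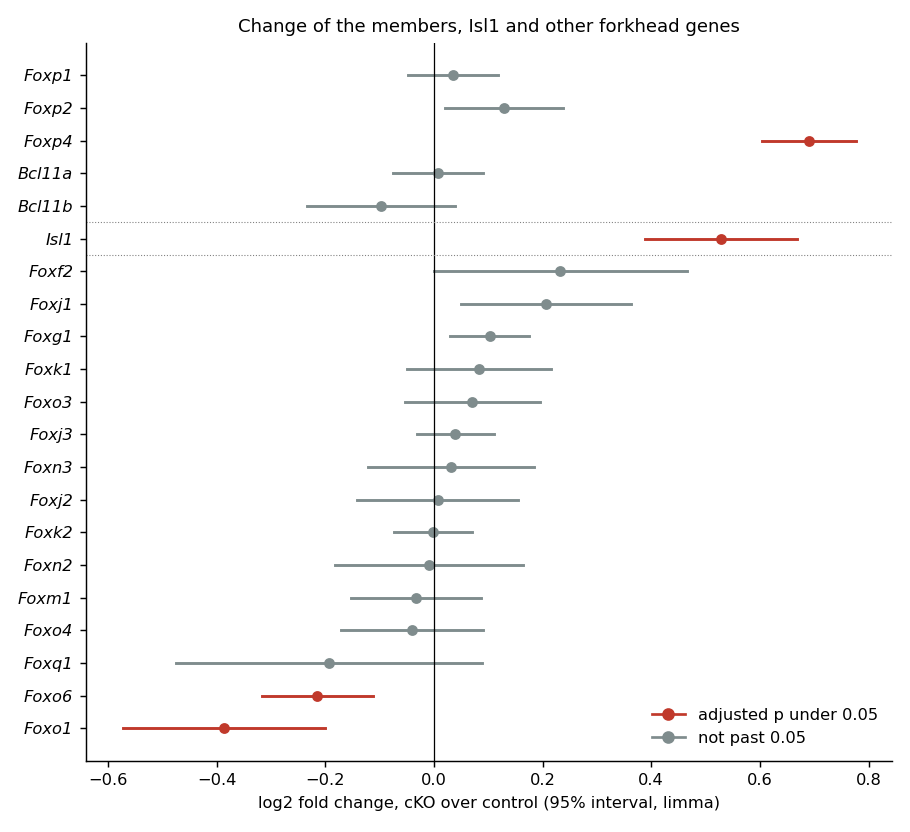
Log2 fold change (cKO over control) with its 95% interval for the 5 genes, Isl1 and the other forkhead genes with a mean adjusted value of at least 100. Foxp4 (0.69) lies to the right of every other forkhead gene drawn, and Foxo6 and Foxo1 are the forkhead genes drawn that fell.

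The genes next to the 5 loci did not pass. For Foxp4, the nearest tested gene on the lower side is Mdfi, 32.4 kb away, which encodes an inhibitor of MyoD family factors. Mdfi averaged 115 ± 6.90 in the cKO and 105 ± 9.54 in the controls (log2 fold change 0.14 ± 0.10, limma adjusted p = 0.529). On the upper side Treml2, 375 kb away, had means of 5.75 in the cKO and 4.25 in the controls (limma adjusted p = 0.882), too low to read. Setd3, which encodes a histidine methyltransferase and lies 103 kb from Bcl11b, had the smallest adjusted p of the 10 neighbours, at 0.066, with a log2 fold change of -0.11 ± 0.03. The remaining 7 neighbours, among them Papolg beside Bcl11a, Mdfic and Ppp1r3a beside Foxp2, and Eif4e3 and Mitf beside Foxp1, had adjusted p between 0.259 and 0.968. The annotation places an antisense gene, Gm15556, across Foxp4 on the opposite strand. It has no row of its own among the listed genes. The library kit marks strand, but the sources used here do not say whether strand was used in counting, so reads of Foxp4 and of Gm15556 cannot be told apart, and likewise those of Bcl11a and its antisense genes Gm12064 and 4930538E20Rik. On the strand of Foxp1 itself lie the protein-coding Gm20696 and the sense-intronic Gm20705, also without rows of their own. Reads that fall in both Foxp1 and either of them cannot be told apart by strand.

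The transcripts most like each gene over the 8 libraries were picked by Pearson's r of the log2 values among 11723 genes with a mean of at least 100. The r of a top gene is high by selection and has no p. For Foxp4 these were Ctsd, which encodes the lysosomal protease cathepsin D (r = 1.00 to 2 decimals), and the small GTPase gene Rab31 (r = 0.99). Within the groups, with group means removed, their r with Foxp4 was 0.76 and 0.51, so the likeness lies mainly in the step between groups. Ctsd averaged 4083 ± 123 in the cKO and 2838 ± 68.7 in the controls (log2 fold change 0.52 ± 0.04, limma adjusted p = 3.80e-06). Rab31 averaged 2049 ± 9.18 in the cKO and 1826 ± 7.54 in the controls (log2 fold change 0.17 ± 0.03, limma adjusted p = 0.00703). The Rab31 call was lost in the authors' deposited table (adjusted p = 0.104) and without the 2 libraries with the lowest pallial levels (adjusted p = 0.0543). For Bcl11b the most similar genes were Fat1, a giant cadherin, and Fam171a1, both at r = 0.99, and both followed its split among the cKO libraries. Arhgap19 and Lima1 were closest to Foxp1, Pcdhgc4 and Dcaf12 to Foxp2, and Brap was close to Bcl11a, with r between 0.97 and 0.98. None of these last 5 passed the test, nor did Fat1 or Fam171a1.

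Of 18 genes of NuRD subunits, CtBP and histone deacetylase corepressors and COUP-TF receptors, none passed in limma, against 6.66% of all genes, and none passed under any of the 19 other settings tried, the authors' table included. With so few genes, neither this count nor that of the BAF list below stands clear of the share over all genes. Rbbp7, a histone-binding NuRD subunit, had the smallest p of the list, with a log2 fold change of -0.07 ± 0.04, and Mta2, another NuRD subunit, had 0.07 ± 0.04 (limma adjusted p = 0.354 and 0.355). Of 23 BAF subunit genes, the chromatin remodeller of which Bcl11a and Bcl11b are themselves subunits, 1 rose and none fell, a share of 4.35% against 6.66% of all genes. The gene that rose was Bcl7c, with 1526.5 ± 59.5 in the cKO and 1331.5 ± 61.2 in the controls (log2 fold change 0.20 ± 0.05, limma adjusted p = 0.0254). Its call was lost without cKO replicate 1, 2 or 4 or control replicate 1 or 4 (adjusted p between 0.0536 and 0.0822), without the 2 libraries with the lowest pallial levels (0.134) and in the authors' deposited table (0.0954).

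Of 12 genes described as targets of FOXP2, 11 were listed, 2 of which rose and 2 fell, 36.4% against 6.66% of all genes, with a median log2 fold change of 0.01. Rarb, which encodes a retinoic acid receptor, fell to 3130 ± 309 in the cKO, against 4110.3 ± 165 in the controls (log2 fold change -0.40 ± 0.06, limma adjusted p = 0.00265). Mef2c, an activity-dependent transcription factor that Foxp2 represses in mouse striatal neurons, fell to 2953 ± 210 in the cKO, against 3614.5 ± 253 in the controls (log2 fold change -0.29 ± 0.06, limma adjusted p = 0.0123). The Mef2c call was lost without the 2 libraries with the lowest pallial levels (adjusted p = 0.109) and without a mean trend (adjusted p = 0.0652). Wnt5a rose by 0.32 ± 0.07 on the log2 scale (limma adjusted p = 0.0201) and the ephrin gene Efnb3 by 0.17 ± 0.05 (limma adjusted p = 0.0498). The Wnt5a call was lost without cKO replicate 2 or 3 or control replicate 2 or 4 (adjusted p up to 0.0685), and that of Efnb3 without cKO replicate 1, 2 or 4 or control replicate 1, 3 or 4 (adjusted p up to 0.149). Without the 2 libraries with the lowest pallial levels the adjusted p of Efnb3 was 0.266. Cntnap2, a neurexin family gene often cited as a FOXP2 target, had a log2 fold change of 0.01 ± 0.04, named here after its value was seen.

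The 4 members that did not pass stood among striatal genes of which many changed. Of 20 genes shared by striatal projection neurons, 11 fell and 3 rose, Rarb and Mef2c among those that fell, against 6.66% of all genes called, with a median log2 fold change of -0.30. The zinc finger factor gene Ikzf1 fell to 99 ± 18.2 in the cKO, against 3537 ± 469 in the controls (limma adjusted p = 1.38e-09). Arpp21, a cAMP-regulated phosphoprotein gene, had a log2 fold change of -1.17 ± 0.09 and fell, while the homeodomain gene Meis2 rose (0.34 ± 0.05). Of 10 striatonigral genes 6 fell, and of 7 striatopallidal genes 2 rose. The striatopallidal count was 1 in RPKM, in the authors' deposited table, without any 1 of the 4 cKO replicates and without control replicate 4, and Drd2 lost its call under 13 of the 19 other settings (adjusted p up to 0.122). Of 5 striosome genes, the compartment in which Foxp2 is often described, 4 fell, with a median log2 fold change of -0.23, and of 4 matrix genes 2 fell and 1 rose. The striosome count was 3 to 4 over the 19 other settings. Sema5b, among the striosome genes that fell, lost its call under 9 of them (adjusted p up to 0.225). These lists were drawn up with earlier results of these data known, and their counts are a description. Per gene, the 95% interval of Bcl11b, whose log2 lower end is -0.23, does not reach the log2 fold change of Arpp21.

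Other forkhead genes gave 1 rise and 2 falls among 24, or 12.5% against 6.66% of all genes, with a median log2 fold change of 0.04. With so few genes, this count does not stand clear of the share over all genes. Foxo1, a forkhead factor under insulin signalling, fell to 2494 ± 273 in the cKO, against 3258 ± 340 in the controls (log2 fold change -0.39 ± 0.09, limma adjusted p = 0.0185). Its relative Foxo6 fell to 1418 ± 56.4 in the cKO, against 1646 ± 82.4 in the controls (log2 fold change -0.21 ± 0.05, limma adjusted p = 0.0168). The Foxo1 call was lost without cKO replicate 2 or 4 or control replicate 1 or 4 (adjusted p up to 0.0629), and the Foxo6 call without cKO replicate 4 or control replicate 4 (adjusted p up to 0.0603), and, for Foxo6, without the 2 libraries with the lowest pallial levels (0.112) and in the authors' deposited table (0.0612). Foxf1 rose from very low values, with 13 ± 2.16 in the cKO and 5.75 ± 2.06 in the controls, called at a limma adjusted p of 0.0498. Leaving out any 1 library other than control replicate 2 ended that call (adjusted p up to 0.126).

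Some marker transcripts of other cell types also differed between the groups. The counts below stand beside 6.66% of all genes called in either direction. Of 12 microglia markers 11 rose and none fell, with a summed level of 96.9 to 116 RPKM in the cKO and 60.1 to 68.5 RPKM in the controls. None of these markers was at 0. Summed RPKM of different genes does not measure the share of a cell type in the tissue. Of 7 erythroid markers 3 rose, with summed levels of 559 to 779 RPKM in the cKO and 393 to 619 RPKM in the controls. The erythroid calls were not stable, at 0 to 3 over the 19 other settings. Hba-a1 and Hba-a2 among them are near-identical copies with the same mean and SD in each group, so they do not count as separate results. The part of either in the Foxp4 result was not tested. Of 18 progenitor and cycling cell markers 2 rose, Dlx1 and Dlx2 (log2 fold changes 0.63 ± 0.05 and 0.31 ± 0.06), and none fell. The summed progenitor level lay between 2081 and 2402 RPKM in the cKO and between 2204 and 2330.4 RPKM in the controls. Among the 12 pallial markers 1 rose, and of 11 genes marking interneurons of medial ganglionic eminence origin 1 rose and 3 fell, while no endothelial marker of 7 passed. Between 2 and 5 of the interneuron genes fell when 1 library was left out, with 5 without cKO replicate 4 and 2 without cKO replicate 2 or 3 or control replicate 1, 2 or 4. Nos1 was among those that lost their call (7 of 19 settings, adjusted p up to 0.092). None of 7 genes of the dorsal LGE and intercalated cells, a population in which Foxp2 is also described, passed in limma with all 8 libraries. Prokr2, a prokineticin receptor gene, passed as lower in the cKO without cKO replicate 3 (adjusted p = 0.037), without control replicate 2 (0.0499) and with a replicate block (0.0227), against 0.0664 with all libraries and no block.

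**Figure D4:**
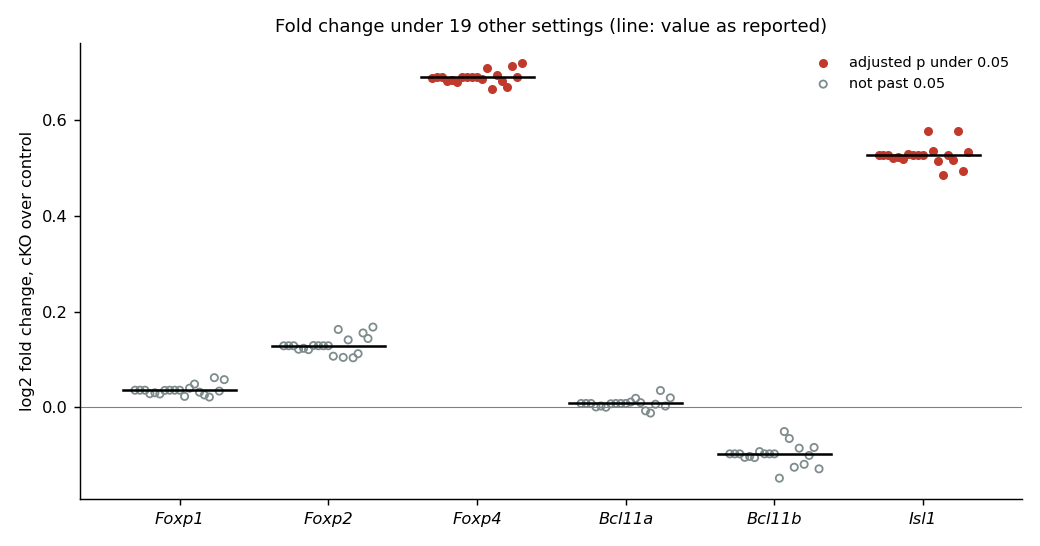
Log2 fold change (cKO over control) of the 5 genes and Isl1 under 19 other settings of the analysis, filled where the adjusted p was under 0.05. Foxp4 stayed between 0.67 and 0.72 and was past the threshold in all 19, while Foxp1, Foxp2, Bcl11a and Bcl11b passed in none of them.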

How the data were processed

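Sample titles gave each library's group and replicate number, and nothing in the labels ties samples of equal number. The submitters' processing notes name STAR, featureCounts, edgeR and the mm10 build, without versions. Columns deposited under a raw heading are treated as a score, not as counts, because their upper quartiles lie between 1624 and 1635 and 1 direction of variation within groups is missing (singular value 0.000241, next 0.0433). The deposited RPKM columns are these values scaled to the library sum and per kb of gene length. The authors' deposited log2 fold changes and p-values served as an alternative, and their sign is that of cKO over control although the column name has the other order.

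Values were compared as log2(value + 1), keeping genes that reached 1 in 4 libraries or more, with limma 3.58.1 in R 4.3.3 (moderated, with a mean trend) and Benjamini-Hochberg adjustment. Fold changes are on that scale. Single values and ratios were compared by exact two-sided permutation over 70 assignments with Python 3.11.15, which takes libraries as exchangeable. The procedure was tested on simulated data from which 1 direction of variation within groups had been removed. There the share of false calls exceeded the threshold set, and the smaller changes were recovered only in part, so calls close to the threshold are less secure than their adjusted p states. The labels call the samples embryos in quadruplicate, and litter and sex are not given. Members and 16 gene lists were chosen with earlier results of these data known. Named genes are the members, Isl1, the nearest tested genes, the 2 most similar genes to each member, and up to 4 called genes of each list with the smallest p (up to 2 where none is called), of which 2 are left out of the text. Of genes with a Fox symbol, only those with 1 letter before the number were kept. Coordinates are those of GENCODE for GRCm38, which mm10 denotes.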

Additional observations from a re-analysis of the deposited data

Results flagged for a closer look

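In cKO replicate 3 the log2 RPKM ratio of Foxp4 to Foxp1 was -0.21, while the other 3 cKO libraries lay close together at the lower end of the range, down to -0.37. It stood apart because its gap to the nearest library exceeded the 95% critical share of the range of the 4 (Dixon's test). This library had the highest Foxp4 value and the lowest Foxp1 value of the cKO group. It was the only one of 32 groups of values tested in this way, and chance alone marks about 1 in 20.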

How the results depend on the processing

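Foxp4 kept its direction and its call under all 19 alternatives, with log2 fold changes of 0.67 to 0.72 and adjusted p up to 0.000277. Without each library in turn the log2 fold change was 0.67 to 0.71. Foxp1 (0.02 to 0.06), Foxp2 (0.10 to 0.17) and Bcl11b (-0.15 to -0.05) kept their direction and passed in none. Bcl11a passed in none and turned negative in RPKM (-4.87e-05), with a range of -0.0123 to 0.0349 without each library in turn. The counts over all genes were 451 risen and 594 fallen. They were 290 risen with the missing direction charged to the model, and 215 risen and 393 fallen without the libraries lowest in pallial markers. Without each library in turn they ranged from 256 to 414 risen and from 402 to 557 fallen. Small list counts moved, with 0 to 2 BAF subunits risen and 0 to 1 fallen, 0 to 2 described FOXP2 targets risen and 1 to 3 fallen, 0 to 3 erythroid markers risen, 7 to 11 shared striatal genes fallen, 1 to 3 striatopallidal genes risen, 2 to 5 interneuron genes fallen, 0 to 1 dorsal LGE and intercalated cell genes fallen and 0 to 1 forkhead genes risen and 0 to 2 fallen. The replicate block left 551 risen and 648 fallen. The numbers do not pair the samples, since the deviations of equal-numbered libraries correlated at 0.23, -0.03, -0.11 and -0.53, and none of the 4 cKO libraries was most like the control of its own number. With the block the log2 fold change of Foxp4 was 0.69 ± 0.03 (SE, limma adjusted p = 2.74e-07), and Foxp2 did not pass (adjusted p = 0.0919). The differences in ratio kept their direction under the 11 alternatives run for them. For the 4 with Foxp4 the adjusted p was 0.0571 to 0.0714 without each library in turn, and up to 0.2 without the 2 libraries lowest in pallial markers. With 3 libraries left in each group the smallest possible exact p lies above 0.05. No ratio could pass there, so the 0.2 does not show a weaker difference. Without each library in turn the difference ranged from -0.16 to -0.07 for Bcl11b to Bcl11a, from 0.06 to 0.12 for Foxp2 to Foxp1 and from 0.01 to 0.04 for Foxp1 to Bcl11a. Depth is unknown, so counting error could not be set apart.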
